A study of Mus musculus with 10 samples.

Results

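The renin-angiotensin and endothelin genes Ace, Agt, Agtr1a, Agtr2, Edn1, Edn3, Ednra, Ednrb and Ece1 were followed in the mouse left ventricle after transverse aortic banding (TAB), an operation that narrows the aortic arch and puts the ventricle under pressure overload. Members were the probes whose gene symbol was one of these 9, which gave 10 probes of the 26423 on the array, with 2 for Agt and 1 for each other gene. The file names 19942 genes in all. All animals were male C57BL/6J mice operated on at an age of 8 weeks, and either TAB or a sham operation was done. Left ventricles were taken on days 3, 5, 7, 14 and 28, with 1 TAB and 1 sham sample a day, which makes 5 samples per operation and 10 in all. The number of mice behind a sample is not given in the sources used here, and untouched hearts were not analysed here. Each RNA was labelled with Cy5 and read in 1 colour on its own oligonucleotide array, a Mouse Whole Genome OneArray. The labels of the TAB sample used for day 14 disagree, with 14 days in the title and 15 in the condition.

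Angiotensinogen, made from Agt, is cleaved by renin and then by angiotensin-converting enzyme, made from Ace, into angiotensin II, which raises blood pressure and drives growth of the heart mainly through the receptor made from Agtr1a. The receptor made from Agtr2 is known to oppose many of these actions. Endothelins are vasoconstrictor peptides released from larger precursors by endothelin-converting enzyme, made from Ece1, and act on the receptors made from Ednra, found on cardiomyocytes and smooth muscle, and Ednrb, found mainly on endothelial cells in vessels.

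The promoters of the members that rose are shown first, so that their levels can be set beside the DNA before their starts. RefSeq sequences of the mouse build GRCm38.p6 were at hand for 8 of the 9 members. Each line gives the 250 bases before a start, 5′ to 3′ on the gene's strand, in lower case. Capitals mark matches, on either strand, to the TATA box letters TATAAA, to the GC box letters GGGCGG or to the AP-1 letters TGANTCA, where N is any base.
Ace, chr11:105967698-105967947, plus strand: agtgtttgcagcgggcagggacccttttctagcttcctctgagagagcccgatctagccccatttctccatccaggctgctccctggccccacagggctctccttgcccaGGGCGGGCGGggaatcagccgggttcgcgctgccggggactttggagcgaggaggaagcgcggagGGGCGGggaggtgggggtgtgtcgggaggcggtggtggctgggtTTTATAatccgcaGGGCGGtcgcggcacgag
Ednrb, chr14:103843702-103843951, minus strand: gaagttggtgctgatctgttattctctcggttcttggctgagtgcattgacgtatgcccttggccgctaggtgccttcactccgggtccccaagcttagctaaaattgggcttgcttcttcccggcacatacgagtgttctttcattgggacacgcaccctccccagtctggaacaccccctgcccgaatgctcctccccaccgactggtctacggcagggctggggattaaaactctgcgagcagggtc
The window of Ace held 1 TATA box match and 4 GC box matches, of which the first pair overlapped, and 0 AP-1 matches. RefSeq lists a second start within Ace, whose window held 0 matches to the 3 motifs. The window of Ednrb also held 0 matches to the 3 motifs. Over all 32851 windows of this length, 12.4% held a TATA box match, 32.7% a GC box match and 6.75% an AP-1 match. A match is a description of letters and not a measured site.

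Not all of these genes could be measured. A probe was taken as found on an array when its deposited flag was not negative, since the negative flag is commonly used by the scanning software for spots it could not find. By this reading 40.2% to 47.3% of spots were missed per array, and the raw median intensity lay between 34 and 57 in arbitrary units. The probes of Ace, Agtr1a, Agtr2, Ednra, Ednrb and Ece1 were found on all 10 arrays. Both Agt probes were found on 0 arrays, the Edn1 probe on 1 and the Edn3 probe on 2. Edn1 and Edn3 fell below the minimum of 1 after scaling in at least 1 sample and were removed with 6447 probes in all, which left 8 member probes among 19976. Only Ednra had a deposited detection p-value under 0.05 on all 10 arrays, against 9 for Agtr1a, 4 for Ace, 2 each for Agtr2 and Ednrb, and 0 for Ece1. These counts cannot be compared between arrays, because a spot with a p-value near 0.05 had a median raw intensity of 86 on the sham array of day 7 and 126 on that of day 28 but 289 to 377 on the other 8. The 2 arrays that detected Ednrb and Agtr2 were those of sham days 7 and 28.

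Of the angiotensin genes, Ace rose and Agtr1a fell in TAB. Ace was higher in TAB on each of the 5 days, on average 1.69-fold, and Agtr1a was lower on each of the 5 days, with sham levels on average 1.77-fold above TAB levels. Of the endothelin genes, Ednrb rose 1.43-fold, and it was likewise higher on each day. Agtr2, Ednra and Ece1 did not pass the test. The 3 called genes are the enzyme that makes angiotensin II, its main receptor and 1 of the 2 endothelin receptors. In a whole ventricle, fewer cells of a type and less RNA per cell cannot be told apart, and this holds for every gene below. How precise a value can be is limited by there being 10 arrays.

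**Figure D1:**
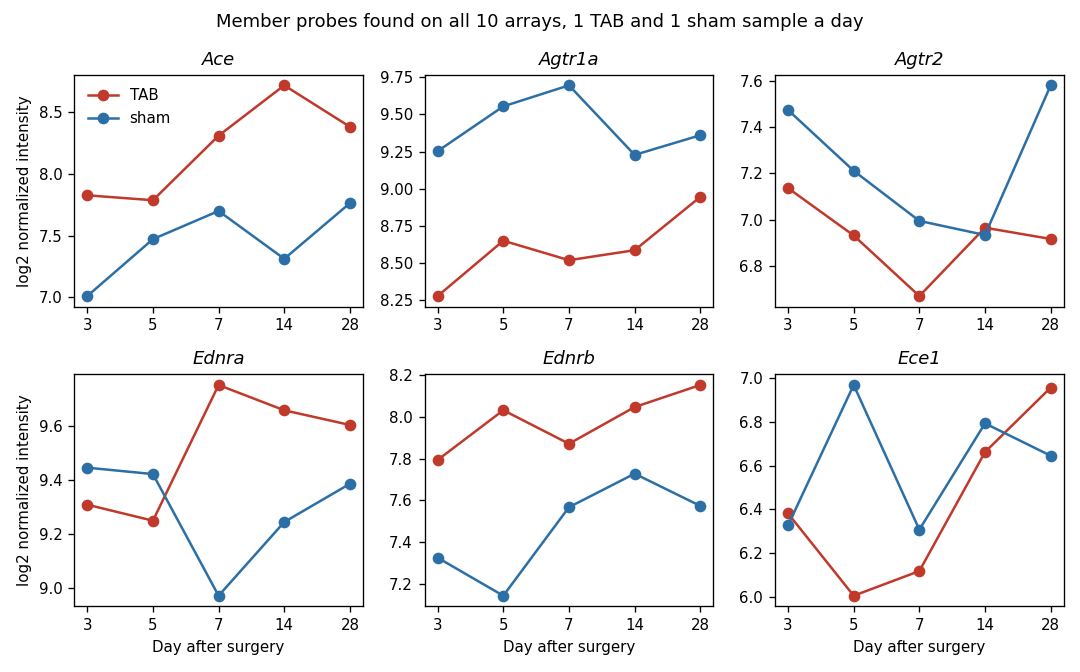
Log2 normalized intensity (vertical axes, each with its own range) against day after surgery (horizontal axes, not to scale in time) for the 6 member probes found on all 10 arrays; each point is 1 sample of TAB (red) or sham (blue), and the lines join samples of 1 operation from different mice. The TAB points of Ace and Ednrb lie above, and those of Agtr1a below, the sham points of the whole series.

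The normalized intensity of Ace, the converting enzyme, was 227, 221, 317, 421 and 333 in TAB on days 3, 5, 7, 14 and 28, in this order. In sham it was 129, 177, 208, 159 and 217 on the same days. The lowest TAB sample, of day 5, thus stood just above the highest sham sample, of day 28, and the 5 samples of each operation did not overlap. The log2 ratio of TAB over sham was 0.82, 0.32, 0.61, 1.41 and 0.62 on the 5 days. Day 14 showed the largest difference, 2.65-fold, where the highest TAB value met 1 of the lower sham values. With the 5 days as replicates of an average effect and day as a block, limma gave a log2 difference of 0.75 (SE 0.17, 95% interval 0.33 to 1.17, adjusted p = 0.0412 over all 19976 probes). On the fold scale the interval ran from 1.26 to 2.26.

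Agtr1a, the main angiotensin II receptor, had a normalized intensity of 309.9, 401, 366, 384 and 493 in TAB, in the same order of days. Its sham values were 610.0, 752, 829, 599 and 657. Every TAB sample lay below every sham sample, with the highest TAB value on day 28 and the lowest sham value on day 14. The log2 ratios of TAB over sham were −0.98, −0.91, −1.18, −0.64 and −0.42. The difference was largest on day 7, where sham stood 2.26-fold above TAB, and smallest on day 28, at 1.33-fold. The average log2 difference from limma was −0.82 (SE 0.14, 95% interval −1.17 to −0.48, adjusted p = 0.0259). The probe of Agtr1b, the close copy of this receptor gene in mice, was found on 0 arrays, and whether transcripts of either gene bind the probe of the other was not tested.

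Ednrb, the endothelin receptor that also clears the peptide from blood, had a normalized intensity of 222, 262, 234, 264 and 284 in TAB. The sham samples gave 160.3, 141, 189.6, 212 and 190.4 in order of day. The lowest TAB sample, of day 3, was close to the highest sham sample, of day 14, but the operations did not overlap. The daily log2 ratios were 0.47, 0.89, 0.30, 0.32 and 0.58, of which day 5 was the largest at 1.85-fold. limma gave an average log2 difference of 0.51 (SE 0.13, 95% interval 0.20 to 0.82, adjusted p = 0.0477). Its adjusted p was the closest to the threshold among the 3 called members.

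Leaving out both samples of any 1 day ended the calls of Ace (adjusted p = 0.0628 to 0.114 from limma) and of Ednrb (0.0807 to 0.126). The call of Agtr1a was lost without day 3, 5, 7 or 14 (0.0571 to 0.0925) and held without day 28 (0.0244), while all 3 genes kept their direction. Removing a day also emptied the calls over the whole array, from 2836 probes to 13, 35, 23 and 184 without days 3, 5, 7 and 14, and to 2773 without day 28.

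The members were set against the rest of the array. Of the 19976 probes, 7.47% were called higher and 6.73% lower in TAB by limma, and among those found on all 10 arrays 17% were called in either direction. When the fit was made on these probes alone, 34.6% of them were called. Among the 8 member probes tested, 2 were called higher and 1 lower, which makes 3 of the 6 found on all arrays. The share of higher calls among all calls was 52.6%, but 66.4% after median scaling alone and 65.5% after normalization within each operation. All TAB samples lay above all sham samples for 8.78% of the probes, a group that held Ace and Ednrb, and below them for 7.59%, which held Agtr1a. By size, 9.46% of the probes found on all arrays had a larger absolute average log2 difference than Ace, 7.28% than Agtr1a and 22.8% than Ednrb.

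**Figure D2:**
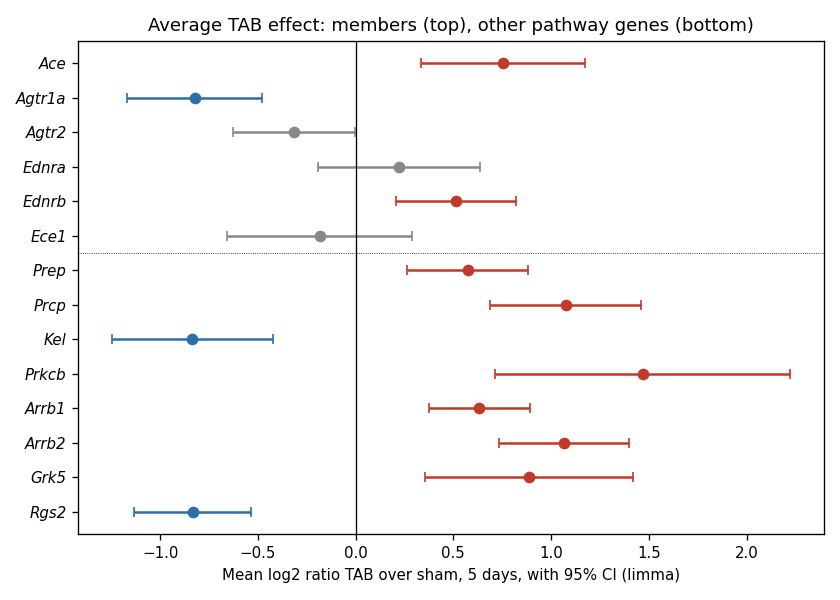
Average log2 difference between TAB and sham over the 5 days (points) with its 95% interval from limma (bars) for the 6 members found on all arrays (above the dotted line) and for genes of the fixed pathway lists that were called and found on at least 1 array (below it); red was called higher, blue lower, grey not called. The intervals of Agtr2, Ednra and Ece1 cross 0 or come close to it, and those of Ace, Ednrb and Agtr1a lie wholly on one side.

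Agtr2, the receptor that opposes many actions of Agtr1a, was found on every array in both operations. Its normalized intensity was 140.8, 122, 102, 125 and 120.9 in TAB and 178, 148, 128, 122 and 191 in sham. The ranges overlapped, and TAB was the lower sample on 4 of the 5 days, with day 14 at a log2 ratio of 0.03. The average log2 difference was −0.31 (SE 0.13, 95% interval −0.63 to −0.0025), with an adjusted p of 0.146 and an unadjusted p of 0.0487 from limma. The interval leaves room for any level from just below that of sham to one 1.54-fold below it.

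Ednra, the vasoconstrictor endothelin receptor, had a detection p-value under 0.05 on every array. In TAB its normalized intensity was 634, 609, 862, 808 and 778, and in sham 698, 686, 502, 607 and 669. TAB was the lower sample on days 3 and 5 and the higher one on days 7, 14 and 28. The log2 ratios were −0.14, −0.17, 0.78, 0.41 and 0.22, and the largest of them, on day 7, joined the highest TAB value to the lowest sham value. Over the 5 days the log2 difference was 0.22 (SE 0.17, 95% interval −0.19 to 0.63, adjusted p = 0.412 from limma), and without day 7 it was 0.080.

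Ece1, the endothelin-converting enzyme, was found on all arrays but had a detection p-value under 0.05 on none. Its normalized intensity was 83.4, 64.3, 69.5, 101 and 124 in TAB and 80.3, 125, 79.2, 111 and 100.1 in sham. Day 5 stood apart with a log2 ratio of −0.96, where the lowest TAB value met the highest sham value, while the other days lay between −0.19 and 0.31. The average log2 difference of −0.18 (SE 0.20, 95% interval −0.66 to 0.29, adjusted p = 0.554 from limma) turned to 0.01 without day 5.

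The precursor and the peptides gave no level. The first Agt probe had raw intensities of 15, 12, 26, 13 and 19 in TAB and 16, 20, 21, 14 and 19 in sham in order of day. The second gave 11, 12, 15, 12 and 15 in TAB and 11, 7, 10, 14 and 16 in sham. Most of these values lie under the 1st percentile of found spots, which was 25 to 27 on the 10 arrays, so Agt was not well above background in any sample and has no fold. limma, which had both probes in the fit, called neither of them.

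Edn1, the main endothelin of the vessel wall, had raw intensities of 8, −1, −2, 2 and 3 in TAB and 0, −1, 7, 1 and 83 in sham. It was found in the sham sample of day 28 alone, which has no replicate. On that array its detection p-value was 0.354, so it was not detected there by that measure. Since Edn1 was not well above background in TAB on any day or in sham on the other 4, no fold is given. Edn3, an endothelin that acts mainly through Ednrb, had raw intensities of 3, 0, 6, 29 and 53 in TAB and −1, −1, 1, 0 and 3 in sham. It was found on 2 of 5 TAB arrays, those of days 14 and 28, and on 0 of 5 sham arrays. On those 2 arrays its detection p-values were 0.924 and 0.898, so it was not detected by that measure in TAB either, and no fold is given. A lone bright spot on a few arrays was seen elsewhere among dim probes, as the probe of the fibroblast gene Pdgfra had raw intensities of 359 and 469 on sham days 7 and 14 and at most 0 on the other arrays.

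**Figure D3:**
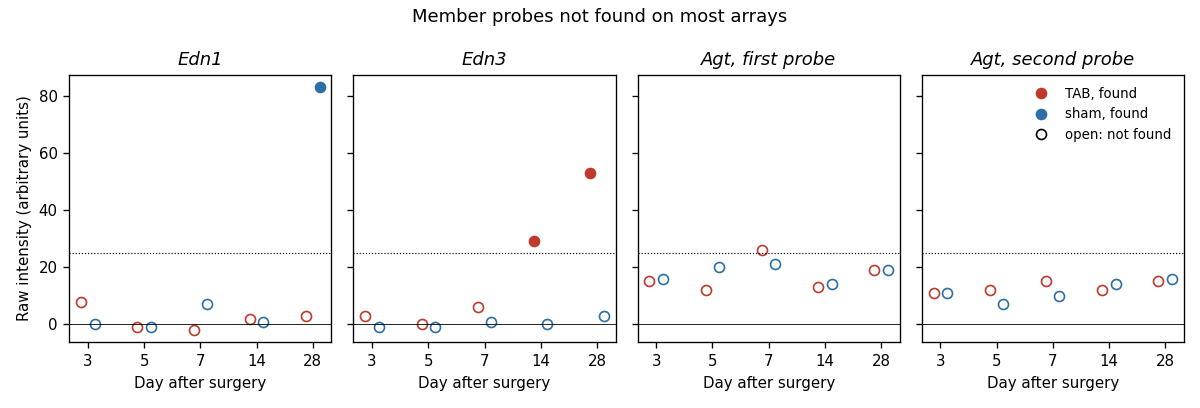
Raw intensity in arbitrary units (vertical axis) by day after surgery (horizontal axis) for the Edn1, Edn3 and Agt probes; red is TAB, blue is sham, filled points were found on the array and open points were not, and the dotted line at 25 is the lowest 1st percentile of found spots over the 10 arrays. Edn1 is found on sham day 28 alone, Edn3 on TAB days 14 and 28, and Agt nowhere.

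The time course was then examined. With 1 sample per operation and day, a single day has no replicate check, so the sham samples, compared with each other across days, gave a measure of variation without banding. The largest absolute log2 difference between any 2 of the 5 sham samples was 0.75 for Ace, 0.47 for Agtr1a, 0.65 for Agtr2, 0.47 for Ednra, 0.58 for Ednrb and 0.66 for Ece1. Agtr1a differed between TAB and sham by more than this on 4 of 5 days and Ace on 2, days 3 and 14. Agtr2, Ednra, Ednrb and Ece1 each did so on 1 day, which was day 28 for Agtr2, day 7 for Ednra and day 5 for Ednrb and Ece1. The share of all probes that did so was not counted, so these counts do not set the members apart.

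**Figure D4:**
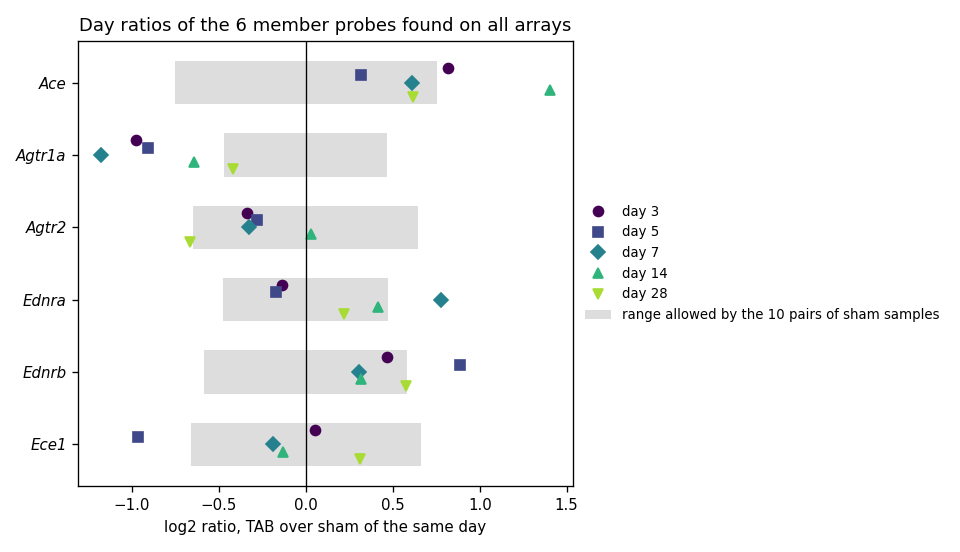
Log2 ratio of TAB over sham (horizontal axis) on each day (symbols) for the 6 member probes found on all arrays (rows); the grey band runs to the largest absolute log2 difference between any 2 of the 5 sham samples. Agtr1a lies outside its band on 4 days and Ace on 2, and each of the others lies outside on 1. The share of all probes outside such a band was not counted.

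The study calls a gene differentially expressed on a day when its log2 ratio passes 2 SDs of all log2 ratios of that day, a threshold that was 1.75, 1.87, 1.71, 1.46 and 1.38 on the 5 days. By this rule 17.9% of all probes were called on at least 1 day, and the members had 0 calls. Ace on day 14 came nearest, with 1.41 against 1.46. With only the probes found on all 10 arrays this call was made, because the threshold of day 14 was then 0.99, which 4.74% of those probes passed. The 10 pairs of sham samples gave 0 member calls as well, where 5.55% to 6.18% of all probes were called per pair. TAB against sham called 5.40% to 5.91% of all probes per day. Each cutoff came from the SD of its own comparison, so these shares cannot show whether banding had an effect. At an absolute log2 ratio of at least 1, a plain 2-fold difference, Ace on day 14 and Agtr1a on day 7 passed, which is 2 of the 8 member probes, while 42.5% of all probes passed on at least 1 day.

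A change of the TAB effect between the early days 3, 5 and 7 and the late days 14 and 28 was tested with limma as an interaction. Agtr1a had a mean log2 ratio of −1.02 on the early and −0.53 on the late days, a difference of 0.49 (SE 0.21, adjusted p = 0.501, unadjusted p = 0.0657). Ace had 0.58 on the early and 1.01 on the late days, a difference of 0.43 (SE 0.32, adjusted p = 0.635). Neither passed, and the same held for the other members. Of all probes 0% passed after adjustment, where 2086 had an unadjusted p under 0.05 and the lowest adjusted p was 0.227.

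The receptors of 1 ligand were set side by side, without a test of their difference. The log2 ratio of Agtr1a was below that of Agtr2 by 0.63 to 0.85 on days 3 to 14, whereas on day 28 it was 0.25 above it. The log2 ratio of Ednrb exceeded that of Ednra by 1.06 on day 5, by 0.60 on day 3 and by 0.36 on day 28. On day 7 it was lower by 0.48, and on day 14 by 0.09. Levels of different probes cannot be compared on this array, so these are differences of ratios and not of receptor amounts.

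The genes whose log2 intensities ran most like those of a member over the 10 samples were listed as a description, since all probes share the arrays and the contrast of the operations. For Ace these were Cpm, a carboxypeptidase gene, with a Pearson r of 0.973, and Ccrl1, a chemokine-binding receptor gene, with 0.963. Agtr1a ran most closely with Oplah (r = 0.979), which encodes the enzyme oxoprolinase, and Cd99l2 (0.978). For Ednrb they were Arrb1 (0.957), a beta-arrestin gene, and Mfsd6 (0.955). The nearest for Agtr2 were Bcl11a (0.989), a transcription factor gene, and Fam194a (0.975). Ednra had BC051226 (0.925) and Srgn (0.922), the gene of the proteoglycan serglycin, and Ece1 had Gata2 (0.913), a transcription factor gene, and Mtus1 (0.913). Among the members themselves, Ace and Ednrb had an r of 0.75 and Agtr1a and Ednrb one of −0.69.

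Further genes of the pathways were read from lists. Of 21 angiotensin pathway genes, which are peptidases, other receptors and binding proteins, 16 had a probe that was kept, and 3 were called higher and 0 lower by limma, beside the same 7.47% and 6.73% over all probes. Prcp, a carboxypeptidase that cleaves angiotensin II, rose by a log2 difference of 1.07, or 2.11-fold (SE 0.16, adjusted p = 0.0207). Prep, a prolyl endopeptidase that can form angiotensin-(1-7), rose by 0.57, or 1.49-fold (SE 0.13, adjusted p = 0.0388). The third, the aminopeptidase gene Anpep, was found on 0 arrays, and its call is between values not well above background. The list had a median log2 difference of 0.04, where that of all probes was −0.05. Cma1, the mast cell chymase, had a log2 difference of −0.38 (adjusted p = 0.0664 from limma) and was not called. The file holds 0 probes under the symbols of the renin genes Ren1 and Ren2.

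Of the 5 further endothelin pathway genes, only Kel and Ece2 were kept, and Ece2 was found on 0 arrays. Kel, the Kell blood group peptidase, which cleaves an endothelin precursor, was 1.78-fold higher in sham (log2 difference −0.84, SE 0.17, adjusted p = 0.0327 from limma). Its TAB log2 levels lay between 7.77 and 8.78 and its sham levels between 8.79 and 9.23.

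Of 32 genes of signalling below these receptors, 29 were kept with 30 probes, of which 4 were called higher and 2 lower, beside 7.47% and 6.73% of all probes, with a median log2 difference of 0.09. Both beta-arrestin genes, whose proteins uncouple and internalise the receptors, rose, Arrb2 by a log2 difference of 1.07 (SE 0.14, adjusted p = 0.0178) and Arrb1 by 0.63 (SE 0.11, adjusted p = 0.0255). Grk5, a kinase that marks active receptors for arrestin, rose by 0.89 (SE 0.22, adjusted p = 0.0471 from limma). The TAB and sham ranges of Arrb2 and Grk5 overlapped, though both genes were higher in TAB on each of the 5 days. Arrb2 had a detection p-value under 0.05 on 1 array, of TAB, and Arrb1 on 2, both of sham. Prkcb, a protein kinase C gene, rose by 1.47 (SE 0.31, adjusted p = 0.0354), and was found on 9 of 10 arrays but had a detection p-value under 0.05 on none. With 50 added before log2 its difference was 0.72. Rgs2, which shuts off the Gq signal of these receptors, fell by 0.83 (SE 0.12, adjusted p = 0.0205), and by 0.41 with 50 added before log2. It was found on 5 of 5 sham arrays but on 2 of 5 TAB arrays, with a detection p-value under 0.05 on none. The aldosterone synthase gene Cyp11b2 was the second one called lower, and it was found on 0 arrays. The G protein genes Gnaq, with a log2 difference of 0.14 (adjusted p = 0.620), and Gna11, with −0.05 (adjusted p = 0.795), were not called. Of the 10 pathway calls of the 3 lists, 0 held without day 3, 5, 7 or 14, and 8 held without day 28, where those of Grk5 and Cyp11b2 were lost.

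Cell type markers were read from lists against the shares over all probes, 7.47% called higher and 6.73% lower. All 7 kept macrophage marker probes were called higher by limma, with a median log2 difference of 1.26 and a summed log2 level of 11.50 to 12.69 in TAB against 10.89 to 11.11 in sham. A second Ptprc probe was found on 0 arrays and removed. In the smooth muscle and pericyte list 3 of 7 probes were called higher and 0 lower, with a median of 0.50 and summed levels of 12.89 to 13.26 against 12.52 to 12.91, and the probes of Cnn1 and Pdgfrb and a second Acta2 probe were found on 0 arrays. In the fibroblast list 3 of 7 were called higher and 0 lower, Postn by 3.37 and Col3a1 by 3.68 among them, with a median of 0.26 and summed levels of 15.85 to 16.30 against 15.54 to 15.68, and the probe of Col1a1 was found on 0 arrays. The cardiomyocyte list had 2 of 10 probes called lower and 0 higher, both of Atp2a2, with a median of −0.36 and summed levels of 17.97 to 18.004 against 18.06 to 18.18. Myl2 of this list sat at the top of the scale, with log2 levels of 15.9991 to 15.9992 in TAB and 15.8805 to 15.9992 in sham, so that this share of the sum could hardly vary. The part of these cell types in the results for Ace, Agtr1a and Ednrb was not tested.

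Endothelial markers were not called. None of the 10 probes of this list was called by limma, 1 had an unadjusted p under 0.05, the median log2 difference was 0.10, and the summed levels were 13.63 to 14.02 in TAB and 13.56 to 13.78 in sham. Over the 5 days Cdh5 had the highest average log2 difference of the list, 0.34, beside 0.51 for Ednrb. On day 28, when Ednrb had a log2 ratio of 0.58, the ratios of Cdh5, Tie1 and the 3 Pecam1 probes were 0.62 to 0.79 and those of Kdr, Tek, Emcn, Egfl7 and Vwf 0.08 to 0.40. On day 5, the day of the largest Ednrb ratio of 0.89, Kdr had 0.93 and the other 9 probes −0.33 to 0.35. The part of endothelial cells in the Ednrb result was not tested. The mast cell list had 1 of 4 probes called higher, that of Kit, and 0 lower, with a median of −0.27 and summed levels of 8.84 to 9.19 in TAB and 8.95 to 9.14 in sham. The atrial list had 1 of 4 called higher, the natriuretic peptide gene Nppa, and 0 lower, with a median of −0.61 and summed levels of 14.96 to 15.30 in TAB and 13.45 to 14.67 in sham. This sum is set mostly by Nppa, whose mean log2 level was 14.95 in TAB and 13.15 in sham, while the average log2 differences of Myl7, Myl4 and Sln were −0.81, −0.40 and −0.90. Nppa is also known to rise in the loaded ventricle. The samples of day 14 stood apart in the other atrial genes, with log2 ratios of TAB over sham of −2.24 for Myl7, −2.76 for Sln and −1.56 for Myl4, against −0.76 to 0.17 on the other days. This was also the day of the largest Ace ratio, and without it the log2 difference of Ace was 0.59 in place of 0.75. The part of atrial tissue in the Ace result was not tested. All 10 cardiomyocyte probes were found on all arrays, as the label of heart tissue would have it, but so were the 4 atrial probes, so the arrays do not by themselves set ventricle apart from atrium.

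**Figure D5:**
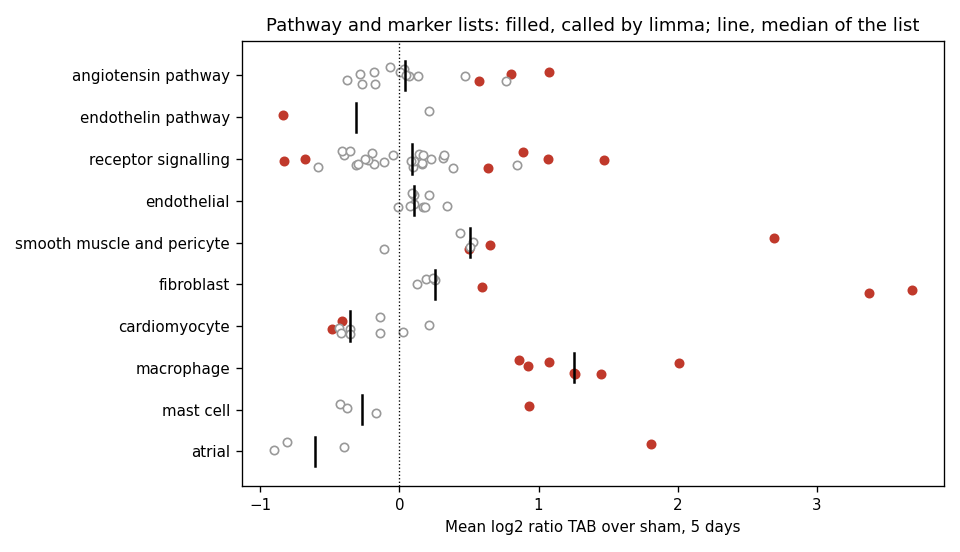
Average log2 difference between TAB and sham over the 5 days (horizontal axis) for each kept probe of the pathway and marker lists (rows); red filled points were called by limma, grey open points were not, and the black line is the median of the list. All macrophage points are red and lie to the right of 0, while none of the endothelial points is red.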

How the data were processed

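The deposited values were the raw intensity of each probe (its background had been subtracted, by a method not given in the sources used here), a detection p-value and a spot flag. The deposited p-value was used for description only. Arrays were brought to the same median, 6447 probes that then fell below 1 in some sample were dropped, and the other 19976 were quantile normalized over the 10 samples to the median of each rank and put on the log2 scale. TAB was tested against sham per probe with limma 3.58.1 in R 4.3.3 (lmFit and eBayes, day as a block, Benjamini-Hochberg over all kept probes at 0.05), as was the difference between days 14 and 28 and days 3, 5 and 7. The fit was not made on 1 probe per gene, because the study's choice of that probe uses the ratios. Samples were paired by day, as in the study's ratios. After the mean of each operation was taken off, the TAB and sham sample of the same day correlated across probes with r = 0.112, 0.00148, 0.0466, 0.0164 and 0.0163 in order of day. The number of animals per sample is not given in the sources used here, so how much of the spread lies between animals is not known. With day as a block, p-values of the average effect measure how the difference between TAB and sham varied over the 5 days. This spread may be technical in part, and it also holds any change of the effect with time. A probe not found on any array of a group was treated as not well above background there. No fold was given against such a group.

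Alternatives were other scalings, filters, a pseudocount of 50, choices of probe, thresholds, no day block, eBayes with trend and robust, and leaving out each day. The limma fit alone was tested on simulated data, drawn with normal noise around fitted values. Named were all members, the called genes of 3 pathway lists, examples from 7 marker lists and the 2 genes most correlated with each member. Where a pathway list had under 3 called genes, the 3 with the largest absolute log2 difference among probes found on all arrays were to be named, which for the endothelin list left Kel. Cma1, Gnaq and Gna11 were named outside this rule, after their values were seen. The members and lists were chosen with earlier results of these data known. Promoter sequences came from RefSeq. Tables and figures were made in Python 3.11.15.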

Additional observations from a re-analysis of the deposited data

How the results depend on the processing

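The directions of Ace, Agtr1a and Ednrb held under all 16 alternatives, and their calls under 10 of the 11 that did not leave out a day. With probes below 1 set to 1, which puts 26423 probes in the fit and leaves 371 called in all, the 3 member calls fell to 0 (adjusted p from limma 0.0856 for Ace, 0.0623 for Agtr1a and 0.0967 for Ednrb) and the 10 pathway calls to 1. Leaving out 1 day gave 0 to 1 member calls, the 1 being Agtr1a without day 28, and 0 to 10 pathway calls, 0 without day 3, 5, 7 or 14. With a day left out, the log2 difference was 0.59 to 0.86 for Ace, −0.93 to −0.74 for Agtr1a and 0.42 to 0.56 for Ednrb, and for Ece1 it was −0.31 to 0.011, of which only the value without day 5 was above 0. Without the replicate block by day, 3 member probes were called, and 3875 of all probes in place of 2836. The cause of these losses was not tested.

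The 0 member calls by the 2 SD rule became 2 with 50 added before log2 (Agtr1a on day 7 and Ace on day 14; 12.6% of all probes called on at least 1 day), 1 without the lowest tertile of probes (12.2%), 1 with only the probes found on all arrays (13.3%; both Ace on day 14), and 2 at an absolute log2 ratio of at least 1 (42.5%). They became 5 with probes below 1 set to 1 (22.5%), all of Edn1 or Edn3, of which the 2 of Edn1 on days 3 and 7 were between spots found in neither sample. Over all probes, limma's calls ran from 13 without day 3 to 4890 with 50 added. The early and late days gave 0 member calls under every alternative run. The spots not found set the limit for Agt, Edn1 and Edn3.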
